A study of Mus musculus with 8 samples.

Results

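The expression of 10 genes that mark hepatic stellate cells and pericytes (Lrat, Reln, Rgs5, Pdgfra, Pdgfrb, Hand2, Cygb, Ngfr, Hhip and Colec11) was followed in RNA from mouse liver duct cells. The genes were chosen by name; each was found in the deposited tables, so 10 of 20377 gene symbols are described, and all 10 passed the filter on low counts. The cells came from livers of wild type C57BL/6 mice, and flow cytometry kept non-parenchymal cells that bound the duct antibody MIC1-1C3, lacked CD26 and were not blood cells. They were parted by surface ST14, the membrane serine protease matriptase, into ST14high and ST14low, with 4 libraries of each. The labels give neither the age nor the sex of the animals and do not say whether the libraries came from separate animals, so the spread between libraries may be technical.

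Hepatic stellate cells lie between the sinusoidal endothelium and the hepatocytes, store vitamin A as retinyl esters and turn into matrix-producing myofibroblasts after injury. Pericytes are the mural cells that wrap small vessels elsewhere; both depend on platelet-derived growth factor (PDGF) received through PDGF receptors. Neither cell type was a target of the sort, which aimed at duct epithelium.

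Library totals ranged from 17418205 to 42769979 counts in ST14high and from 6398306 to 31011664 in ST14low, where replicate 3 was the shallowest. Duct cell markers were abundant in every library: 16 of them summed to between 36400 and 58200 CPM (counts scaled to a common library size with TMM factors) in ST14high and to between 39100 and 59400 CPM in ST14low. ST14high replicate 1 stood apart in several cell type lists, with pancreatic acinar genes at 11090 CPM, against 5.67 to 1620 CPM in the other ST14high libraries and 5.25 to 125 CPM in ST14low. Fold changes of the 10 genes and medians of the marker lists are given with and without that library.

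Compared per transcript length, on the RPKM values the authors deposited, the genes fell into a steep order with Rgs5 on top. Rgs5, a regulator that shortens G protein signals and is used as a pericyte marker, averaged 112 ± 36.4 RPKM in ST14high and 157 ± 55.8 RPKM in ST14low (SD, n = 4 each). That placed it between the 94.0 and the 99.2 percentile of all genes in each library. Reln, the secreted glycoprotein reelin, came next with 10.6 ± 2.26 RPKM in ST14high and 11.4 ± 3.22 RPKM in ST14low. Rgs5 exceeded Reln in 8 of 8 libraries, and Reln exceeded the third gene, Colec11, in 7 of 8. Colec11 and Cygb were not separated beyond their spread, since Colec11 was above Cygb in 5 of 8 libraries. Pdgfrb, Hand2, Pdgfra and Lrat followed at mean levels of 2.67, 1.11, 1.11 and 0.908 RPKM over the 8 libraries. Hand2, Pdgfra and Lrat had no stable order: Hand2 exceeded Pdgfra in 5 of 8 libraries and Pdgfra exceeded Lrat in 2 of 8. Ngfr and Hhip had the lowest means, at 0.466 and 0.108 RPKM, but not in every library. Lrat exceeded Ngfr in 6 of 8 libraries, and Ngfr exceeded Hhip in 6 of 8.

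The ratios between the genes differed between libraries. In RPKM, Rgs5 was 5.62 times Pdgfrb in ST14high replicate 1 and between 36.8 and 268 times Pdgfrb in the other ST14high libraries, against 77.7 to 645 times in ST14low. Rgs5 was 63.7 to 278 times Lrat in ST14high and 145 to 430 times Lrat in ST14low.

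The upstream sequences of 4 genes are shown because they cover the contrast in level and pattern described here: Rgs5 and Reln as the 2 most abundant genes, Lrat as the gene of retinoid storage, and Hand2 as 1 of the genes that peaked in ST14high replicate 1. RefSeq promoter entries were matched for 8 of the 10 symbols. Each run gives the 250 bases before the gene start, 5′ to 3′ on the gene's strand, with coordinates of build GRCm38.p6. Capitals mark matches on either strand to the TATA box TATAAA, the GC box GGGCGG, the CCAAT box CCAAT and the E-box CANNTG, the motif bound by helix-loop-helix factors such as Hand2.
Rgs5 chr1:169655251-169655500, plus strand: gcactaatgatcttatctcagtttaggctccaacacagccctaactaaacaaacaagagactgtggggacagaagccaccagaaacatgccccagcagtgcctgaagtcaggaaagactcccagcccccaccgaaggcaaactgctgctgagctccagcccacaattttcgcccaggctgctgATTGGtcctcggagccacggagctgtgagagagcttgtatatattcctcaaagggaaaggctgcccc
Reln chr5:22344706-22344955, minus strand: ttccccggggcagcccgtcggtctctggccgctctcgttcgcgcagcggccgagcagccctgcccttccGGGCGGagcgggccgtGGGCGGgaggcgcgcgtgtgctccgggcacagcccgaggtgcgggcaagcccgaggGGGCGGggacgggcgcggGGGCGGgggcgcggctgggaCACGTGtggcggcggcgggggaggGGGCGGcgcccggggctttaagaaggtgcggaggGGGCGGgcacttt
Lrat chr3:82903975-82904224, minus strand: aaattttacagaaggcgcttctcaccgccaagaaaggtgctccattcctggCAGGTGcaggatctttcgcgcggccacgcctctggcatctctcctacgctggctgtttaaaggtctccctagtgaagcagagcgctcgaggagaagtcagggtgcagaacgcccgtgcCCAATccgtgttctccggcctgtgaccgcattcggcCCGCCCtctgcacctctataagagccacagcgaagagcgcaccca
Hand2 chr8:57320733-57320982, plus strand: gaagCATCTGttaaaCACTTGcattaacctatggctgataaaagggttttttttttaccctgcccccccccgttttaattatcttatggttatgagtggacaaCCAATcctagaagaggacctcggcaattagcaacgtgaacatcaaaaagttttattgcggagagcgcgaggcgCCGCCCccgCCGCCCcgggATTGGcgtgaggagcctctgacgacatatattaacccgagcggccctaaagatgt

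Reln had 80.0% G and C and held 6 GC boxes and 1 E-box in these bases. Rgs5 had 53.6% G and C, no GC box and 1 CCAAT box. Lrat held 1 GC box, 1 CCAAT box and 1 E-box, and Hand2 held 2 of each. None of the matches overlapped another. The exact letters TATAAA were absent from the 4 windows, and variants of the TATA box were not searched for. Over 32851 RefSeq promoter entries of the same length, 32.7% held a GC box, 33.8% a CCAAT box, 66.2% an E-box and 12.4% a TATA box, and the median share of G and C was 52.4%. The matches are letters in a window and were not tested as binding sites.

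**Figure D1:**
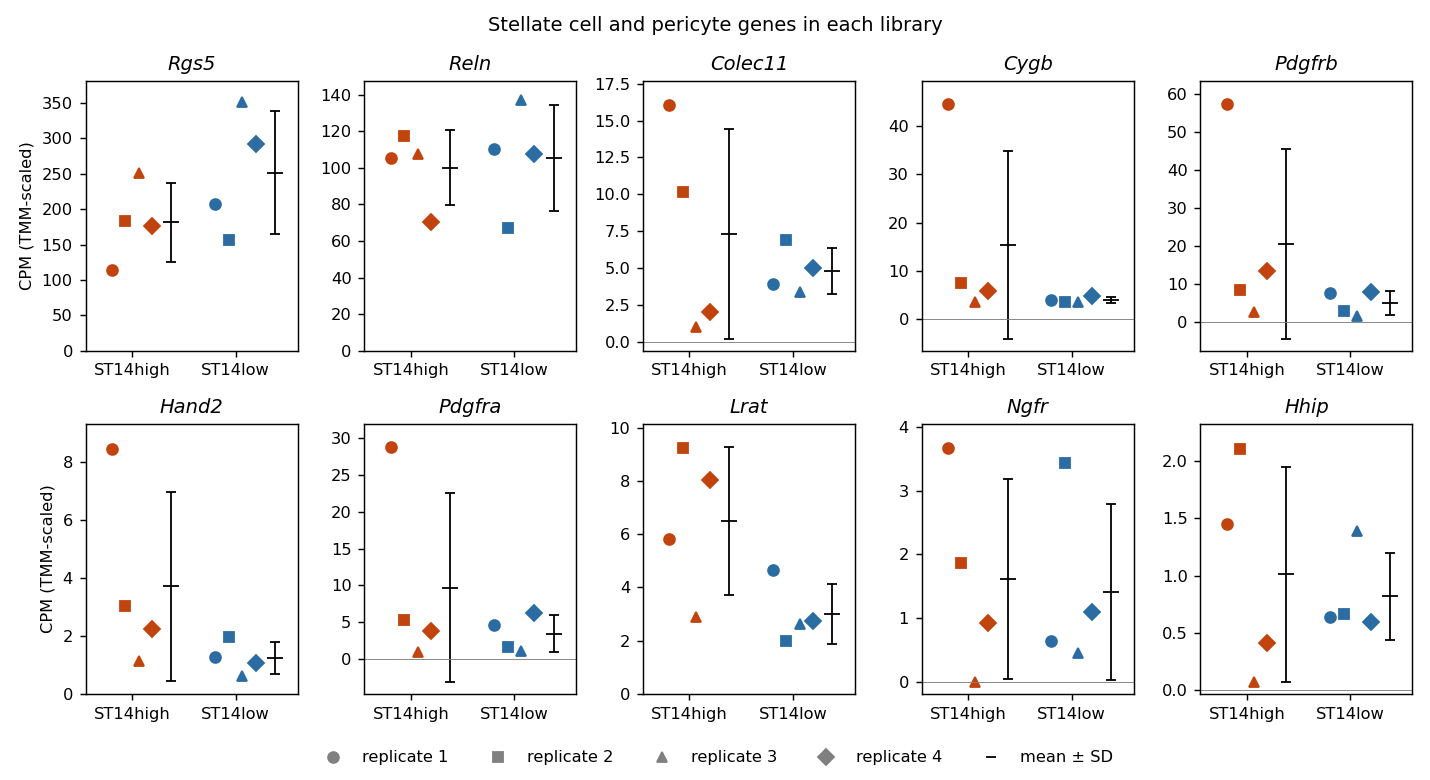
Level of each gene in CPM in ST14high (left) and ST14low (right) libraries; marker shapes give the replicate and black bars the mean ± SD. Pdgfra, Pdgfrb, Cygb and Hand2 are highest in ST14high replicate 1 (28.7, 57.4, 44.5 and 8.46 CPM), while Rgs5 is lowest there (115 CPM).

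The comparison between the populations asks whether duct cells with high surface ST14 carry more or less of these transcripts. Lrat, Pdgfrb, Hand2 and Cygb had the smallest unadjusted p-values in edgeR, all with higher means in ST14high. Rgs5 and Reln had lower means there, with log2 fold changes of -0.47 and -0.075. No gene of the 10 passed edgeR's quasi-likelihood test over all genes; the smallest adjusted p was 0.455, for Cygb. That test called 0 of 13749 genes (0%). At an unadjusted p under 0.05 it marked 4 of the 10 as higher and 0 as lower, where 6.89% of all genes were marked higher and 2.68% lower (9.56% in either direction). The 4 genes became 5 without ST14high replicate 3, 2 without ST14high replicate 2 or 4 or ST14low replicate 4, 1 without ST14high replicate 1 or ST14low replicate 1 or 2, and 0 without ST14low replicate 3. The share of all genes marked higher moved too in these fits. It ran from 4.83% without ST14low replicate 1 to 8.24% without ST14low replicate 3, and was 7.65% without ST14high replicate 3. With the replicate number as a block 1 of the 10 (Pdgfrb) was marked higher and in limma's voom 1 (Lrat), against 6.04% and 6.55% of all genes. Under a stricter filter of 5 CPM, which 4 of the 10 passed, 1 (Pdgfrb) was marked higher, against 5.67% of all genes. Without ST14high replicates 1 and 2 together 0 were marked higher, against 5.71% of all genes, and 1 (Colec11) lower. DESeq2 called 0 of the 10, against 1.62% of all genes higher and 0.103% lower. In none of the 10 genes did all libraries of 1 population lie above all of the other, which held for 4.09% of all genes in the higher and 2.33% in the lower direction. In bulk RNA, fewer cells of a type and less RNA per cell cannot be told apart.

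Lrat encodes lecithin retinol acyltransferase, which esterifies retinol for storage and is a defining gene of quiescent stellate cells. Its transcript (chromosome 3, 82696504 to 82707896 in build mm9, minus strand) was at 5.81, 9.23, 2.91 and 8.04 CPM in ST14high replicates 1 to 4, against 4.65, 1.998, 2.62 and 2.75 CPM in ST14low replicates 1 to 4. Only ST14high replicate 3 lay within the ST14low range. In edgeR this made a log2 fold change of 1.11 (SE 0.44, 95% interval 0.11 to 2.10), with an unadjusted p of 0.0325 and an adjusted p of 0.483. The exact two-sided permutation p over libraries was 0.0571, where the smallest that 4 against 4 can give is 0.0286. Without ST14high replicate 1 the log2 fold change was 1.15, so this difference was as large without that library. With other single libraries left out it ran from 0.89 (ST14high replicate 2) to 1.40 (ST14low replicate 1). In edgeR, Lrat did not reach an unadjusted p under 0.05 without ST14high replicate 2 or 4, or without ST14low replicate 2, 3 or 4. Nor did it with the replicate number as a block.

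Hand2 is a helix-loop-helix transcription factor of mesenchyme. It was measured at 8.46, 3.02, 1.13 and 2.23 CPM in ST14high, against 1.28, 1.95, 0.617 and 1.06 CPM in ST14low (chromosome 8, 59799780 to 59803314, plus strand, mm9). The highest 3 values were all from ST14high, and replicate 3 of ST14high lay among the ST14low values. The log2 fold change, 1.56 (SE 0.67, adjusted p = 0.508 in edgeR, exact permutation p = 0.0857), was 0.76 without ST14high replicate 1. Only 439 counts stood behind this gene, with 4 in ST14low replicate 3.

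Cygb encodes cytoglobin, an oxygen-binding globin first described in stellate cells (chromosome 11, 116506909 to 116515627, minus strand, mm9). The ST14high libraries held 44.5, 7.60, 3.61 and 5.97 CPM, against 3.96, 3.69, 3.55 and 4.82 CPM in ST14low. The 4 ST14low values lay close together (SD 0.568 CPM), ST14high replicates 1, 2 and 4 lay above all of them, and replicate 3 lay within them. For Cygb the log2 fold change came to 1.93 (SE 0.72, adjusted p = 0.455 in edgeR, exact permutation p = 0.114). Without ST14high replicate 1 it was 0.51, with a 95% interval from -0.29 to 1.30.

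Of the receptors, Pdgfrb and Pdgfra encode the tyrosine kinases that bind PDGF, and Pdgfrb is needed for pericytes to be recruited to vessels. Pdgfrb (chromosome 18, 61204804 to 61244721, plus strand, mm9) was at 57.4, 8.35, 2.65 and 13.5 CPM in ST14high, against 7.54, 2.82, 1.54 and 7.97 CPM in ST14low. ST14high replicates 1, 2 and 4 exceeded every ST14low library, replicate 2 by a small gap. Its log2 fold change was 2.0 (SE 0.86, adjusted p = 0.51 in edgeR, exact permutation p = 0.2), and 0.68 without ST14high replicate 1.

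Pdgfra (chromosome 5, 75548316 to 75594229, plus strand, mm9) also marks fibroblasts at large. Its level was 28.7, 5.25, 1.04 and 3.77 CPM in ST14high, against 4.69, 1.69, 1.08 and 6.32 CPM in ST14low. Apart from ST14high replicate 1 the populations lay in 1 range. The log2 fold change, 1.45 (SE 0.92, adjusted p = 0.63 in edgeR, exact permutation p = 0.571), became -0.075 without that library.

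Ngfr encodes the low-affinity neurotrophin receptor p75, found on stellate cells and on Schwann cells (chromosome 11, 95430140 to 95449012, minus strand, mm9). It was at 3.66, 1.87, 0 and 0.920 CPM in ST14high, against 0.639, 3.43, 0.463 and 1.09 CPM in ST14low. Both populations spanned nearly the whole range. The count of 0 in ST14high replicate 3 allows up to 0.0708 CPM (3 counts), for counting error only, and ST14low replicate 3 held 3 counts. Its log2 fold change was 0.15 (SE 1.18, 95% interval -2.48 to 2.79, adjusted p = 0.975 in edgeR). The value turned to -0.64 without ST14high replicate 1, and to -0.09 or -0.11 when ST14low replicate 1 or 3 was left out. Of the Schwann cell genes, Cdh19, Gfra3 and Foxd3 were at 0 in all libraries and Sox10 had 1 count in all. The list of 11 summed to between 146 and 267 CPM in ST14high and between 126 and 204 CPM in ST14low, most of it Erbb3, a neuregulin receptor that epithelia also carry (163 ± 40.4 CPM in ST14high, against 154 ± 29.1 CPM in ST14low).

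Rgs5 (chromosome 1, 171585632 to 171623657, plus strand, mm9) was at 115, 184, 251 and 177 CPM in ST14high, against 208, 156, 351 and 292 CPM in ST14low. The populations overlapped, with ST14low replicates 3 and 4 highest and ST14high replicate 1 lowest of all 8. Rgs5 had a log2 fold change of -0.47 (SE 0.29, 95% interval -1.11 to 0.17, adjusted p = 0.612 in edgeR, exact permutation p = 0.229), which was -0.31 without ST14high replicate 1 or -0.27 without ST14low replicate 3. It had an unadjusted p under 0.05, as lower in ST14high, in limma's voom test and in edgeR without ST14high replicate 3 or ST14low replicate 2. It carried 42546 counts, the most of the 10 genes.

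Hhip encodes a membrane-anchored protein that binds and traps Hedgehog ligands (chromosome 8, 82489750 to 82581907, minus strand, mm9). With 149 counts it was the least abundant. The ST14high libraries held 1.45, 2.11, 0.0708 and 0.416 CPM, against 0.639, 0.666, 1.39 and 0.594 CPM in ST14low. Both the 2 highest and the 2 lowest values belonged to ST14high. For Hhip the log2 fold change was 0.33 (SE 0.91, 95% interval -1.71 to 2.37, adjusted p = 0.926 in edgeR), and -0.35 without ST14high replicate 2.

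Among the secreted proteins, reelin binds the lipoprotein receptors encoded by Vldlr and Lrp8 and is made in liver by stellate cells. Reln (chromosome 5, 21390272 to 21850523, minus strand, mm9) was at 105, 117, 107 and 70.2 CPM in ST14high, against 110.2, 67.0, 137 and 108 CPM in ST14low. The ranges coincided, and the highest library was 2.04 times the lowest, the narrowest range of the 10 genes; for Rgs5 the highest was 3.06 times the lowest, and for Pdgfrb 37.2 times. For Reln the log2 fold change was -0.075 (SE 0.23, 95% interval -0.58 to 0.43, adjusted p = 0.934 in edgeR). It was 0.06 without ST14high replicate 4 and 0.07 without ST14low replicate 3.

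Colec11 encodes a collectin, a soluble lectin that starts the lectin pathway of complement (chromosome 12, 29279038 to 29308155, minus strand, mm9). It was at 16.0, 10.1, 1.02 and 2.08 CPM in ST14high, against 3.96, 6.92, 3.40 and 5.03 CPM in ST14low. The ST14high libraries lay on both sides of the ST14low range, 2 above it and 2 below. For Colec11 the log2 fold change came to 0.58 (SE 0.74, adjusted p = 0.807 in edgeR, exact permutation p = 0.914) and -0.15 without ST14high replicate 1.

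**Figure D2:**
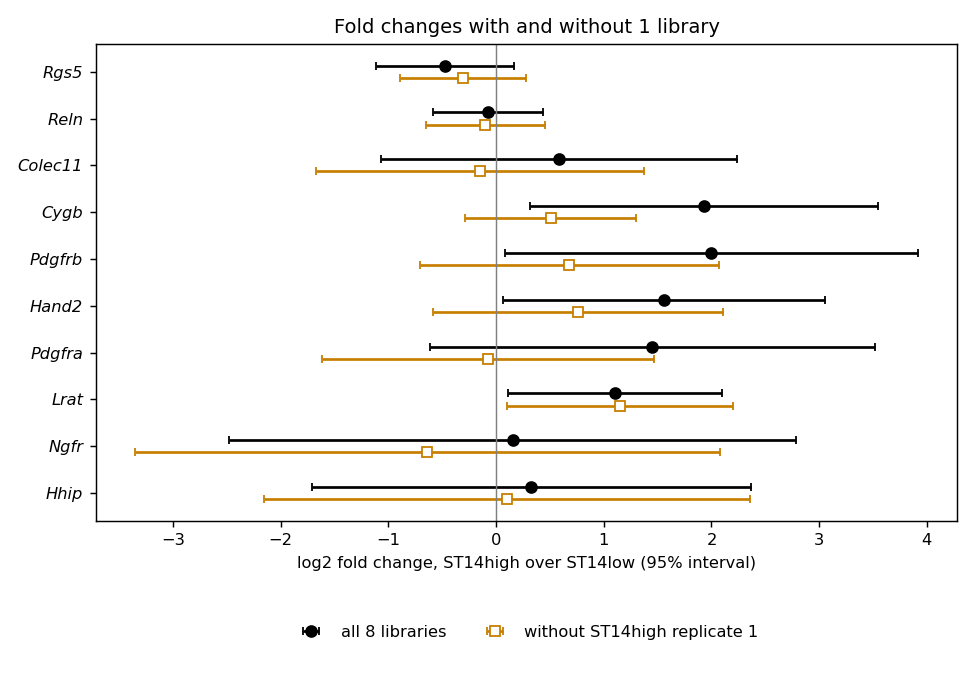
Log2 fold change of each gene, ST14high over ST14low, with its 95% interval from edgeR, for all 8 libraries (filled circles) and without ST14high replicate 1 (open squares). Cygb, Pdgfrb, Hand2 and Pdgfra move towards 0 without that library, to 0.51, 0.68, 0.76 and -0.075, while Lrat stays at 1.15.

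Over the 10 genes, 8 had a log2 fold change above 0 and the median was 0.84, beside 50.3% above 0 and a median of 0.002 over all genes tested. Without ST14high replicate 1, 5 of the 10 were above 0 and the median was 0.015, with Lrat the only gene left at an unadjusted p under 0.05 (adjusted p = 0.488 in edgeR). Without ST14high replicates 1 and 2 together, a setting chosen after seeing the data, 4 were above 0 and the median was -0.24. ST14high replicate 1 was the highest of the 8 libraries in 6 of the 10 genes, and in 23% of all genes tested. In each setting tried, 0 of the 10 passed an adjusted p of 0.05.

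Profiles across the libraries placed the genes in several patterns. Each profile was taken as log2 CPM minus the gene's own mean, and the distance between 2 genes was the mean absolute difference between their profiles. Reln and Rgs5 were the closest pair, 0.35 apart on this log2 scale, followed by Pdgfra and Pdgfrb at 0.37 and Hand2 and Cygb at 0.44. The profiles of Reln and Rgs5 were also the flattest, at 0.273 and 0.40 from their own means on average. Flat profiles lie close on this measure, and Reln lay nearer to its own mean than to Rgs5. The closeness of that pair therefore does not show shared changes. Rgs5 and Ngfr were the farthest pair, at 1.58. The closeness of Pdgfra, Pdgfrb, Hand2 and Cygb includes their shared peak in ST14high replicate 1, at 2.93, 3.06, 2.18 and 2.85 log2 units above the gene's mean. Rgs5 stood at -0.84 in that library. Ngfr, Hhip and Colec11 were lowest in ST14high replicate 3, at -3.62, -2.36 and -2.06 (the lowest library for Pdgfra too, at -1.75). Endothelial markers summed to 22.7 CPM in ST14high replicate 3, against 284 to 1500 CPM in the other ST14high libraries and 320 to 1330 CPM in ST14low, and their part in these values was not tested.

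**Figure D3:**
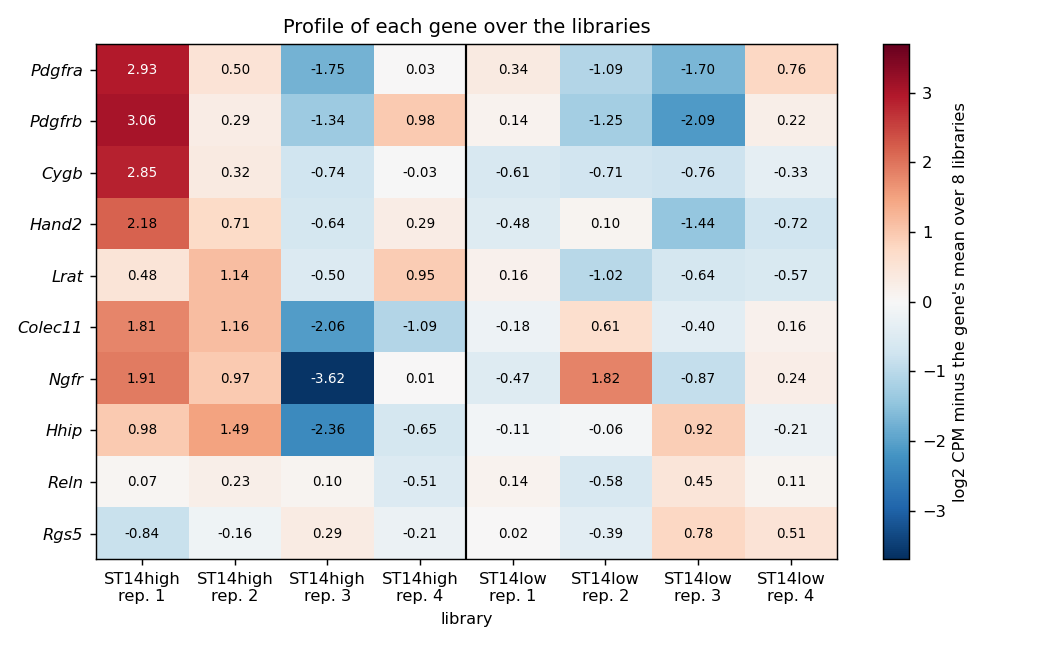
Log2 CPM of each gene minus its mean over the 8 libraries, with ST14high libraries left of the black line and ST14low libraries right of it. The first 4 rows share a peak in ST14high replicate 1 (2.93, 3.06, 2.85 and 2.18), Ngfr, Hhip and Colec11 share a low in ST14high replicate 3, and the rows of Reln and Rgs5 stay within 0.84 of 0.

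The tested genes nearest to each profile were taken over the same 8 libraries. Nearest to Pdgfra was Lum, the matrix proteoglycan lumican, at 0.32, and nearest to Hand2 was Ecm1, extracellular matrix protein 1, at 0.23. Nearest to Colec11 was Pth1r, the parathyroid hormone receptor, at 0.33. The profile of Lrat lay closest to Pcsk5 (a proprotein convertase, 0.25), that of Pdgfrb to the nuclear receptor Nr4a3 (0.29) and that of Cygb to the kinase Plk3 (0.18). Reln lay closest to Ddhd2 (a phospholipase, 0.082), ahead of the insulin receptor Insr (0.094), and Rgs5 closest to Itih5 (0.14). The nearest gene to Ngfr, Eya4, was 0.56 away.

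Other genes of the same pathways were read from lists, in which edgeR called 0 genes over all genes. Of 15 Hedgehog pathway genes, 12 were tested, with 8 above 0, a median log2 fold change of 1.16 and 6 at an unadjusted p under 0.05, all higher; the median was 0.17 without ST14high replicate 1. DESeq2, fitted on all 8 libraries only, called 4 of them as higher (Boc, Gas1, Gli1 and Gli2), where 1.62% of all genes were called higher. These 4 were all highest in ST14high replicate 1, as were 7 of the 12 tested. In each of the 4, every ST14high library also lay above every ST14low library, which held for 4.09% of all genes. Without ST14high replicate 1 the log2 fold changes of Boc, Gas1, Gli1 and Gli2 were 1.627, 1.604, 2.356 and 2.773. Of the 12 tested genes, 8 were above 0 without that library. The receptor component Smo was at 113 ± 12.3 CPM in ST14high, against 127 ± 5.54 CPM in ST14low, and the co-receptor Cdon at 118 ± 40.5 CPM in ST14high, against 92.6 ± 12.4 CPM in ST14low. Gli1, a transcriptional target of the pathway named after its value was seen, was at 2.98 ± 2.80 CPM in ST14high, against 0.33 ± 0.152 CPM in ST14low.

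The 4 PDGF ligands were all tested, with 3 below 0 and a median of -0.057 (2 below 0 and -0.035 without ST14high replicate 1). Pdgfc was at 288 ± 39.5 CPM in ST14high, against 409 ± 14.6 CPM in ST14low, which is -0.51 on the log2 scale (adjusted p = 0.275 in edgeR and 0.00804 in DESeq2), with every ST14high library below every ST14low library. Pdgfd was at 185 ± 33.2 CPM in ST14high, against 191 ± 32.2 CPM in ST14low. Of the 6 genes of reelin receptors and signal, 2 were above 0 and the median was -0.041; without ST14high replicate 1, 4 were above 0 and it was 0.03. The adaptor Dab1 was at 84.0 ± 23.5 CPM in ST14high, against 80.2 ± 18.3 CPM in ST14low, and Pafah1b1 at 288 ± 16.1 CPM in ST14high, against 292 ± 67.5 CPM in ST14low.

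Retinoid genes other than Lrat lay on both sides of 0: 7 of 17 tested were above it, with a median of -0.096, and 5 without ST14high replicate 1, with a median of -0.077. The retinal dehydrogenase Aldh1a1 was at 337 ± 73.2 CPM in ST14high, against 365 ± 51.8 CPM in ST14low, and the reductase Dhrs3 at 269 ± 63.1 CPM in ST14high, against 316 ± 42.4 CPM in ST14low. DESeq2 called Aldh1a2, another retinal dehydrogenase, as higher (20.9 ± 14.7 CPM in ST14high, against 3.25 ± 1.84 CPM in ST14low). Of the 10 tested genes of neurotrophins and receptors, 5 were above 0 and the median was 0.003 (5 and 0.051 without ST14high replicate 1). Sort1, which pairs with p75, was at 478 ± 19.7 CPM in ST14high, against 570 ± 85.8 CPM in ST14low, and the adaptor Maged1 at 388 ± 27.5 CPM in ST14high, against 397 ± 69.7 CPM in ST14low. Of 7 tested lectin pathway genes 3 were above 0, with a median of -0.015, and 5 without ST14high replicate 1, with a median of 0.26. The protease Masp2 was at 31.7 ± 6.40 CPM in ST14high, against 16.7 ± 6.63 CPM in ST14low (adjusted p = 0.312 in edgeR) and Masp1 at 22.4 ± 2.99 CPM in ST14high, against 31.4 ± 9.53 CPM in ST14low. Of 10 tested RGS genes other than Rgs5, 4 were above 0, with a median of -0.064 (3 and -0.096 without ST14high replicate 1). Rgs2 was at 245 ± 28.4 CPM in ST14high, against 345 ± 65.0 CPM in ST14low (adjusted p = 0.396 in edgeR), and Rgs12 at 47.6 ± 8.09 CPM in ST14high, against 56.4 ± 9.15 CPM in ST14low. DESeq2 called Rgs11 as higher (25.7 ± 6.72 CPM in ST14high, against 11.3 ± 4.31 CPM in ST14low). Among mesenchymal transcription factors, 9 of 10 tested were above 0, with a median of 0.41 and of -0.035 without ST14high replicate 1. Gata6 was at 215 ± 32.8 CPM in ST14high, against 197 ± 23.1 CPM in ST14low, and Nr2f2 at 143 ± 29.8 CPM in ST14high, against 102 ± 25.2 CPM in ST14low.

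Other markers of the same cells, and of cells that share these genes, were set beside the 10. All 16 tested markers of stellate cells were above 0, with a median of 1.48, and of 0.58 without ST14high replicate 1. DESeq2 called Des, Ecm1, Pcdh7 and Synm among them as higher, where 1.62% of all genes were called higher, and each was highest in ST14high replicate 1. Without that library their log2 fold changes were 2.675, 0.856, 2.032 and 1.354. In 3 of the 16 (Des, Pcdh7 and Vim) every ST14high library lay above every ST14low library, against 4.09% of all genes. Des is also in the smooth muscle list. Sod3, an extracellular superoxide dismutase, was at 214 ± 28.8 CPM in ST14high, against 182 ± 58.1 CPM in ST14low, and the intermediate filament gene Vim at 165 ± 162 CPM in ST14high, against 41.1 ± 13.2 CPM in ST14low. Gfap, a defining stellate cell gene in rodents, was at 0.943 ± 0.648 CPM in ST14high, against 0.319 ± 0.230 CPM in ST14low. Of 8 tested pericyte markers 5 were above 0, with a median of 0.19, and 5 without ST14high replicate 1, with a median of 0.11. Anpep was at 257 ± 58.0 CPM in ST14high, against 274 ± 52.5 CPM in ST14low, and the channel subunit gene Abcc9 at 49.9 ± 15.4 CPM in ST14high, against 50.4 ± 22.5 CPM in ST14low. Higd1b, a defining pericyte gene, had 7 counts over all libraries. Notch3, a receptor of mural cells that DESeq2 called as higher, was at 23.5 ± 29.1 CPM in ST14high, against 2.52 ± 0.750 CPM in ST14low.

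The lists of myofibroblast activation, smooth muscle, mesothelium and portal fibroblasts had medians further from 0 than that of the 10 genes, while those of mesenchymal transcription factors and pericyte markers were nearer to 0. All 9 tested genes of myofibroblast activation were above 0, with a median of 2.67 and of 1.36 without ST14high replicate 1. Col3a1 was at 285 ± 342 CPM in ST14high, against 44.5 ± 22.5 CPM in ST14low, and Col1a1 at 128 ± 168 CPM in ST14high, against 16.8 ± 9.21 CPM in ST14low. All 8 tested smooth muscle genes were above 0 (median 3.65, and 2.62 without that library), as were all 8 tested mesothelial genes (median 3.36, and 2.44 without it). Myh11, smooth muscle myosin, was at 146 ± 164 CPM in ST14high, against 8.15 ± 9.23 CPM in ST14low, and Mylk at 199 ± 35.3 CPM in ST14high, against 128 ± 29.2 CPM in ST14low. The mesothelial genes Gpm6a and Upk3b were at 202 ± 33.7 and 121 ± 121 CPM in ST14high, against 178 ± 34.4 and 12.4 ± 6.88 CPM in ST14low. Of 15 portal fibroblast genes 14 were above 0, with a median of 1.29 and of 0.45 without that library. Gas6, a ligand that is not confined to fibroblasts, was at 2730 ± 394 CPM in ST14high, against 2320 ± 376 CPM in ST14low, and Dcn at 268 ± 199 CPM in ST14high, against 56.4 ± 15.1 CPM in ST14low. The differences between these medians were not tested. DESeq2 called 7 of 8 mesothelial and 5 of 8 smooth muscle genes as higher, against 1.62% of all genes. Of those given an adjusted p, it called 4 of 12 portal fibroblast and 2 of 6 myofibroblast genes as higher. Every ST14high library lay above every ST14low library in 7 mesothelial, 4 smooth muscle, 6 portal fibroblast and 4 myofibroblast genes. That held for 4.09% of all genes.

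The summed levels of these lists moved with the peak of Pdgfra, Pdgfrb, Cygb and Hand2. Stellate cell markers summed to 1040 CPM in ST14high replicate 1, against 350 to 484 CPM in the other ST14high libraries and 225 to 364 CPM in ST14low. Smooth muscle genes summed to 884 CPM there, against 209 to 456 CPM in the other ST14high libraries and 122 to 212 CPM in ST14low. Mesothelial genes summed to 1100 CPM there, against 314 to 426 CPM and 157 to 277 CPM in those groups. In ST14low, Mylk (128 CPM) made up most of the smooth muscle sum and Gpm6a (178 CPM) most of the mesothelial sum. Their log2 fold changes, 0.64 and 0.18, were below the medians of their lists. Pericyte markers summed to between 388 and 473 CPM in ST14high and between 342 and 471 CPM in ST14low, a sum of which Anpep makes up the most. Singly, 5 of the 8 tested pericyte markers (Cspg4, Notch3, Mcam, Gja4 and Steap4) were highest of the 8 libraries in ST14high replicate 1, where Notch3 was at 66.7 CPM. Endothelial markers also had their highest sum there, at 1500 CPM, with 9 of 14 tested genes highest in that library. Of the other cell types, 13 of 14 tested endothelial, 12 of 13 macrophage and 12 of 12 hepatocyte genes were below 0 (medians -0.38, -1.94 and -0.45), 4 of 6 tested Schwann cell genes were above 0 (median 0.10), and all 5 tested acinar genes were above 0 (median 6.40). Of 16 duct cell genes 5 were above 0, with a median of -0.039. Without ST14high replicate 1 the medians were -1.78 for endothelial genes (0 of 14 above 0), -2.35 for macrophage, -0.28 for hepatocyte, -0.04 for Schwann cell, 3.85 for acinar and -0.07 for duct cell genes. Of 15 acinar genes only 5 were tested, since the filter asks for enough counts in several libraries. Pnlip, for 1, had 30014 counts and was not tested. The acinar list summed to 1620 CPM in ST14high replicate 2, but to 5.67 and 13.4 CPM in ST14high replicates 3 and 4, within the ST14low range. The part of other cells in the values of the 10 genes was not tested.

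**Figure D4:**
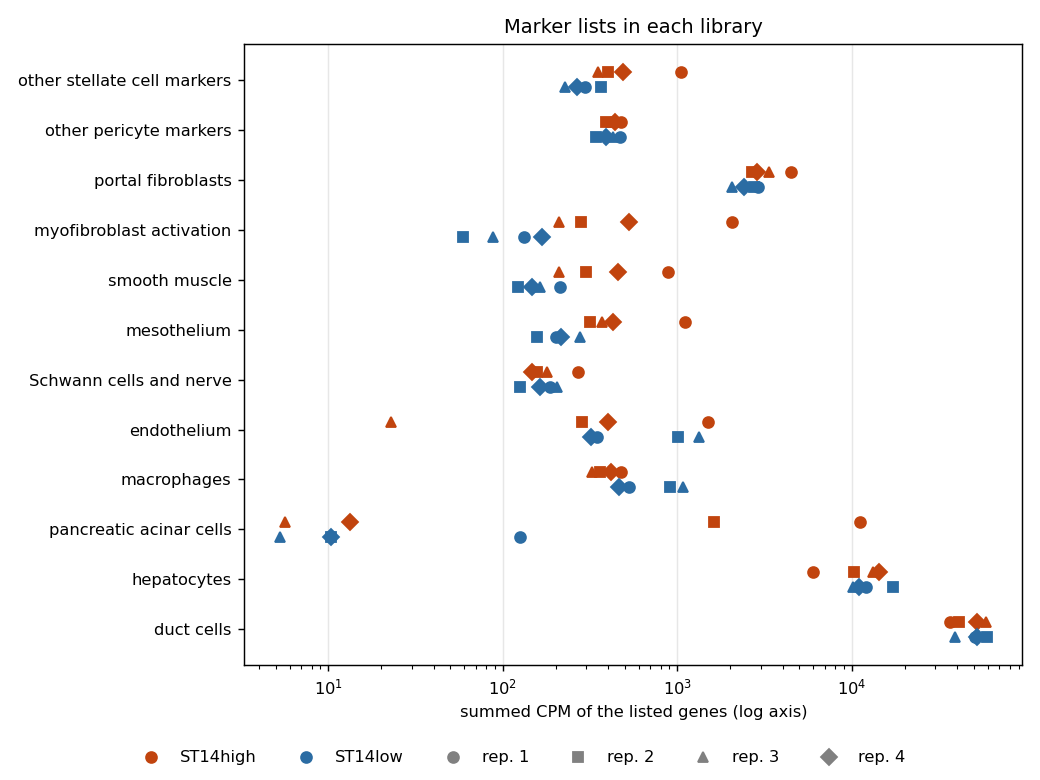
Summed CPM (log axis) of the genes of 12 marker lists in each library, with ST14high above ST14low in each row and marker shapes for replicates. ST14high replicate 1 is highest for stellate cell, myofibroblast, smooth muscle, mesothelial, endothelial and acinar lists (1040, 2060, 884, 1100, 1500 and 11090 CPM). It is also highest for portal fibroblast and Schwann cell lists (4500 and 267 CPM) and lowest for hepatocyte and duct cell lists (5989 and 36420 CPM). The pericyte sums, in which Anpep weighs most, span 342 to 473 CPM, with ST14high replicate 1 at 473 and ST14low replicate 1 at 471 CPM.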

How the data were processed

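RNA was sequenced from 4 ST14high and 4 ST14low libraries prepared, per the labels' protocols, with TruSeq reagents from Illumina. CASAVA 1.8.2, Bowtie 1.0.0 and build mm9 are named in the submitters' processing notes, with no role given; how reads were counted, on which annotation and with which strand rule is not given in the sources used here. The deposited tables give raw counts and RPKM for 26005 RefSeq transcripts. The counts are whole numbers the authors deposited without normalization. The RPKM column of the deposited tables corrects for transcript length and library size and served only to compare levels between genes. Starts in the tables count from 0 and are printed from 1.

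For each of the 20377 symbols the transcript with the most counts was kept; 3507 symbols had several. No transcript of another symbol overlapped the 10 genes in these tables. Populations were compared with edgeR 4.0.16 in R 4.3.3 (quasi-likelihood test, TMM factors, filterByExpr, population as the only term) on 13749 genes, with two-sided p-values adjusted by Benjamini-Hochberg at 0.05. Exact two-sided permutation tests of single genes used log2 CPM (prior count 2) and 70 arrangements of the libraries. Other tools were DESeq2 1.42.0 and limma 3.58.1 (voom with quality weights). The edgeR procedure was tested on simulated data with the same dispersion for every gene and no outlying library. That test does not cover a library such as ST14high replicate 1. Intervals and floors cover counting error or spread between libraries only. Plots used Python 3.11.15 and matplotlib 3.10.9.

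The 10 genes, 20 further lists and the naming rule were chosen with earlier results of these data known. The rule named the 10 genes, the 2 most abundant genes of a list where fewer than 2 passed edgeR's adjusted threshold, and the 3 genes nearest in profile to each of the 10 with a mean of at least 1 CPM, of which the nearest are given. Genes named for DESeq2's calls and other genes were chosen after their values were seen. Other settings were other scaling factors, no filter or 5 CPM in at least 4 libraries, the longest transcript, a block for the replicate number, and fits without each library in turn.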

Additional observations from a re-analysis of the deposited data

Results flagged for a closer look

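In each population the highest or lowest of the 4 libraries was compared with the nearest other one, for 20 sets of 4 values; chance alone flags about 1 in 20. The result was 3 values that stood apart. Pdgfra was at 28.7 CPM in ST14high replicate 1, where the next ST14high library had 5.25 CPM, a gap of 0.848 of the whole range. Cygb was at 44.5 CPM in the same library, with the next at 7.60 CPM and a gap of 0.902 of the range. Hhip was at 1.39 CPM in ST14low replicate 3, with the next ST14low library at 0.666 CPM and a gap of 0.909 of the range; that library held 9 counts of the gene.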

How the results depend on the processing

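The count of 0 of the 10 genes past edgeR's threshold was 0 in each of the 18 other settings. Over all genes, the count of 0 became 234 in DESeq2 (220 higher, 14 lower) and 2 with the replicate block, and stayed 0 in the other settings (1315 genes had an unadjusted p under 0.05). Libraries with the same number did not deviate together (r = 0.052, 0.052, -0.125 and 0.005 for numbers 1 to 4), so the numbers were not taken as pairs. The median over the 10 genes, 0.84, ran from 0.015 to 1.13 with 1 library left out, the lowest without ST14high replicate 1; it was 0.42 with the replicate block (5 of 10 above 0), -0.056 in limma's voom and -0.24 without ST14high replicates 1 and 2, and 0.25 over the 4 genes left under the stricter filter. Of 174 log2 fold changes of single genes in other settings, 155 kept their direction and 19 turned. With limma's voom Pdgfra was at -0.33, Ngfr at -0.96, Hhip at -0.042 and Colec11 at -0.07. With the replicate block Ngfr was at -0.50, Hhip at -0.15 and Colec11 at -0.11. Leaving out 1 library turned Reln (-0.24 to 0.07), Pdgfra (-0.075 to 1.91), Ngfr (-0.64 to 1.08), Hhip (-0.35 to 0.72) and Colec11 (-0.15 to 0.93). Without ST14high replicates 1 and 2 together Pdgfra was at -0.55, Ngfr at -1.65, Hhip at -1.71 and Colec11 at -1.65. Apart from what leaving out libraries shows, the cause was not tested. Ngfr and Hhip rest on 256 and 149 counts, so depth limits both.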

Other observations

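Hedgehog ligands, which Hhip binds, were named here after their values were seen. Ihh was at 54.7 CPM in ST14high replicate 1 and averaged 17.7 ± 24.8 CPM in ST14high and 4.50 ± 0.474 CPM in ST14low (log2 fold change 1.97, adjusted p = 0.504 in edgeR, and 0.24 without that library). Shh was at 129 CPM in the same library and averaged 33.5 ± 64.0 CPM in ST14high and 0.229 ± 0.417 CPM in ST14low. It had 2186 counts but was not tested, since too few libraries held enough of them to pass the filter. Disp1, which releases these ligands from cells, was listed at 0 in all libraries.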
